A study of Mus musculus with 106 samples.

Results

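Hk1, Hk2, Hk3, Hkdc1, Slc2a1, Slc2a3, Slc2a6, Slc2a8 and Slc2a4 encode the hexokinases and a set of glucose transporters, and this account follows the histone marks at these 9 genes among 21938 protein-coding genes of the mouse. The 9 were chosen by gene name and function and not by any measured value, though earlier results of these data were known by then. Each was read in 70 lists of ChIP-seq peaks, 35 for histone H3 acetylated at lysine 27 (H3K27ac) and 35 for histone H3 trimethylated at lysine 4 (H3K4me3), at its promoters (every annotated start site with 1 kb on either side, GRCm38) and over its gene body with 10 kb added at each end.

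Glucose enters a cell through carriers of the GLUT (Slc2a) family and is trapped there when a hexokinase phosphorylates it, which is the first step of glycolysis. Slc2a1 (GLUT1) is a carrier of most cell types, Slc2a3 (GLUT3) is a high-affinity carrier of neurons and leukocytes, and Slc2a4 (GLUT4) is the insulin-responsive carrier of muscle and fat. Slc2a6 (GLUT6) and Slc2a8 (GLUT8) sit mainly on membranes inside the cell. Hk1 is the broadly expressed hexokinase, Hk2 is the inducible form of muscle, fat and activated immune cells, Hk3 is found in myeloid cells, and Hkdc1 is a relative of the hexokinases that lies beside Hk1 on chromosome 10. H3K4me3 marks the start sites of genes that are active or poised, and H3K27ac marks active promoters and enhancers.

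The marks were measured in hematopoietic stem cell preparations (HSCs) and in bone marrow-derived macrophages (BMDMs) from C57BL/6J mice aged 12 to 14 weeks, either nondiabetic controls or mice made diabetic with streptozotocin, a toxin of the insulin-producing β cells. Streptozotocin was given at 42 to 45 mg/kg/d on 5 days, and marrow was taken after 6 weeks from animals with glucose above 13.9 mmol/L. The HSCs were marrow from which cells bearing CD3, CD4, B220, Ter119 or Gr1 had been removed, so they were an enriched and not a pure population, and they received no stimulation. BMDMs were grown for 7 days in L929-conditioned medium with 5 mmol/L glucose for control and diabetic origin alike, then held for 16 hours in medium alone (unstimulated) or with 100 ng/mL lipopolysaccharide plus 10 ng/mL interferon-γ (LPS+IFN-γ). Of the 12 groups of libraries, 10 held 6 and 2 held 5, the unstimulated diabetic BMDMs of each mark. The study counts its n in individual animals, but the labels do not tie libraries to animals, so the p-values are taken to measure the spread between these libraries.

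The lists held 7828714 peaks in all, from 13730 to 277213 each (median 110154). Read totals were not part of the lists, so depth is unknown and no counting interval is given. Because lists of unequal length are hard to compare peak by peak, each promoter was expressed as a percentile: the percentage of all protein-coding genes whose best promoter peak had a lower −log10 p in that list. A gene with several promoters takes its best one, and genes with no peak share the lowest percentile of the list, which lay between 10.3 and 29.6 in the lists where Hk3 carried no H3K4me3 peak. Regions between promoters were treated alike, as a percentile among consensus regions. In bulk chromatin, a mark present in fewer cells and a weaker mark in every cell cannot be told apart.

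Marker genes and stimulated regions were read before the members. At macrophage genes the mean H3K27ac promoter percentile was 31.7 in control and 29.5 in diabetic HSCs, against 42.4 and 34.1 in unstimulated BMDMs. Of the 6 macrophage markers, only Csf1r and Cd68 were called higher in control BMDMs, and none was called in diabetic BMDMs. Stem and progenitor genes averaged 56.3 and 57.4 in HSCs against 45.5 and 48.2 in unstimulated BMDMs. Gata1, an erythroid transcription factor, was called lower in BMDMs than in HSCs (by −29.3 points in control and −24.8 in diabetic cells). Of the neutrophil genes Mpo was called lower in BMDMs than in HSCs (by −13.1 and −21.1 points), and no lymphoid gene was called. Of the genes that answer LPS+IFN-γ only Cxcl10 was called with stimulation, in diabetic cells (23.1 points, limma adjusted p = 0.0228). Stimulation was checked on regions outside the member loci that were among the 20000 best peaks of every LPS+IFN-γ diabetic library and of no unstimulated diabetic library (105 regions for H3K27ac), and on the reverse (38 regions). Replicate 5 of the control libraries labelled as LPS+IFN-γ had 22 of the 105 and 31 of the 38, and the control libraries labelled unstimulated replicates 5 and 6 held 84 and 75 of the 105 with 4 and 16 of the 38. These 3 libraries go against their labels, and member regions called with them are given with and without them. For H3K4me3 only 8 regions of either kind were found and 4 of 6 unstimulated control libraries went against their labels, so the H3K4me3 values were recomputed without the same 3 numbers.

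At promoters the 9 genes fell into a marked group and a sparsely marked group. Hk1, Hk2, Slc2a1, Slc2a3 and Slc2a8 carried H3K27ac promoter peaks in 35 of 35 libraries and ranked among the 10000 best peaks of the list in 35, 29, 29, 29 and 32 of them. For H3K4me3 the same 5 genes reached the 10000 best peaks in 31, 20, 28, 33 and 31 of 35 libraries. Hk3 and Hkdc1 reached that rank in 1 and 0 H3K27ac libraries and in 0 H3K4me3 libraries each. Slc2a6 and Slc2a4 lay between, with H3K27ac peaks in 35 and 33 libraries but a place among the 10000 best in only 2 and 4. This depended on the cutoff, since among the 20000 best peaks they were found in 34 and 17 H3K27ac libraries. For H3K4me3 Slc2a6 and Slc2a4 reached the 10000 best in 3 and 13 libraries, and the 20000 best in 8 and 25. On average 4.60 ± 0.736 of the 9 promoters (SD, n = 35) were among the 10000 best H3K27ac peaks, and 4.54 ± 1.01 (SD, n = 35) among the 10000 best H3K4me3 peaks.

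Hk1 has 12 annotated start sites in 9 separate promoters across chr10:62268855-62379908 on the minus strand, and they were not marked alike. The promoter at chr10:62340542, inside the longer transcripts, had an H3K27ac peak in 35 of 35 libraries, each among the 10000 best, and an H3K4me3 peak in 34 of 35, with 31 among the 10000 best. The promoter farthest upstream, at chr10:62379852-62379908, from which 4 protein-coding transcripts start, had a peak in 3 H3K27ac and 9 H3K4me3 libraries and was never among the 10000 best. The noncoding gene Hk1os starts within the same H3K27ac region as the marked promoter, so signal there cannot be assigned to Hk1 alone. Over all libraries the Hk1 H3K27ac promoter percentile ran from 65.9 to 89.7 (median 75.5) and the H3K4me3 percentile from 29.6 to 98.2 (median 75.9).

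Hk2, at chr6:82725025-82774454 on the minus strand, had an H3K27ac promoter percentile of 52.4 to 91.6 (median 62.1) and an H3K4me3 percentile of 47.5 to 96.7 (median 65.3), with a peak of both marks in every library. Hk3, at chr13:55005985-55021385 on the minus strand, had an H3K27ac promoter peak in 18 of 35 libraries and no H3K4me3 promoter peak in any of 35. Its median H3K27ac percentile was 29.8, and the 1 library in which it was among the 10000 best was a control HSC library. That count was 0 with windows of 500 bp or an overlap of 200 bp. The flanking H3K27ac regions, chr13:55022348-55023804 and chr13:55018406-55019976, reach into the Hk3 promoter window (chr13:55019904-55022385). Their peaks can therefore count as promoter peaks. Hkdc1, at chr10:62383137-62422491 on the minus strand, had H3K27ac peaks in 13 and H3K4me3 peaks in 20 of 35 libraries, none of them among the 20000 best. At both genes a percentile therefore says mainly whether any peak was called.

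The bases upstream of the hexokinase start sites are shown because the marked and the sparsely marked promoters differ in CpG content over windows of 300 bases (RefSeq, GRCm38.p6, minus strand, 5′ to 3′, CpG in capitals). Each stretch is the longest run free of annotated exons in the upstream part of its window. At the marked Hk1 promoter this leaves 64 bases with 2 CpG, so that stretch does not show the 20 CpG of its window. RefSeq promoters were matched for 7 of the 9 genes. The stretches are chr10:62379909-62380158 for the upstream Hk1 promoter, chr10:62340543-62340606 for the marked Hk1 promoter, chr6:82774455-82774704 for Hk2, chr13:55021386-55021635 for Hk3 and chr10:62422492-62422707 for Hkdc1.
Hk1 upstream promoter: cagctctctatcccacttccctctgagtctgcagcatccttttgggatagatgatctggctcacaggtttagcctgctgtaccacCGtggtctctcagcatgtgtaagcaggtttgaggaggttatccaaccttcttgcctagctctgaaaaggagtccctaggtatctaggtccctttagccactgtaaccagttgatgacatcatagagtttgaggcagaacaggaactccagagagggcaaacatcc
Hk1 marked promoter: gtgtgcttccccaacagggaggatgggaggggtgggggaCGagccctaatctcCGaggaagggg
Hk2 promoter: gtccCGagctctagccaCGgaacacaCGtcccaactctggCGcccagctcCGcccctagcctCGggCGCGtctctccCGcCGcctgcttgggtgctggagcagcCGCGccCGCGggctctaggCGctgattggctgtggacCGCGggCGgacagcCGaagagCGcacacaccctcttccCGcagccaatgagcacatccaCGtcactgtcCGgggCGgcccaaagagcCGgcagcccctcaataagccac
Hk3 promoter: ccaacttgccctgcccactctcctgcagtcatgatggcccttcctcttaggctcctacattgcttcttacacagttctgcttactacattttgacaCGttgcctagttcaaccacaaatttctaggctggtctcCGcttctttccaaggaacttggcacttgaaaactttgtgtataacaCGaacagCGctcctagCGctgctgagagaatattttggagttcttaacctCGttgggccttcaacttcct
Hkdc1 promoter: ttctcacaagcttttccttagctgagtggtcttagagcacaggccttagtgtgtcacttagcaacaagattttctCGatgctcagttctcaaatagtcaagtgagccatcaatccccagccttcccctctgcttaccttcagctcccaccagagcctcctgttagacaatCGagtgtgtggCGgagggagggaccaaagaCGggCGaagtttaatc

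Counted over windows of 300 bases (250 before and 50 after the start), the upstream Hk1 promoter held 1 CpG and the marked Hk1 promoter 20, which placed them at the percentiles 9.78 and 74.4 of 32851 promoter windows (median 7 CpG). Hk2 held 25 CpG (percentile 82.4), Hk3 held 7 (49.6) and Hkdc1 held 9 (55.4). On both strands the Hk2 window held 3 GC boxes (GGGCGG, present in 35.7% of all windows) and 2 CCAAT boxes (CCAAT, 37.4%). The Hk3 window and the marked Hk1 window each held 1 PU.1 core (GAGGAA, 28.3%), and none of the 8 member windows held an E box (CACGTG, 7.15%) or an AP-1 site (TGANTCA, 7.81%). A match describes letters and not binding.

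Among the transporters, Slc2a1 (chr4:119108711-119137983, plus strand) had an H3K27ac promoter percentile of 48.8 to 86.4 (median 69.6) and an H3K4me3 percentile of 29.6 to 95.6 (median 71.1). Slc2a3 (chr6:122727809-122801640, minus strand) has 4 promoters, of which the start farthest upstream, at chr6:122801640, had peaks of both marks in 35 of 35 libraries, with 29 H3K27ac and 32 H3K4me3 libraries among the 10000 best. A second cluster of Slc2a3 start sites about 59 kb downstream, at chr6:122742262-122742920, had peaks in 27 H3K27ac and 29 H3K4me3 libraries, with 0 and 2 among the 10000 best. The upstream start has 1 annotated protein-coding transcript, and the downstream cluster has 3. The place of Slc2a3 in the marked group, and its promoter percentile, therefore rest mainly on the upstream start. Slc2a8 (chr2:32972990-32982083, minus strand) had the highest H3K4me3 promoter median of the 9, at 82.2 (range 55.1 to 99.7), beside an H3K27ac median of 70.2.

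Slc2a6 (chr2:27021363-27027998, minus strand) had an H3K27ac peak in every library, with a narrow range of percentiles (47.0 to 76.2, median 54.3), but an H3K4me3 peak in 29 of 35 (median percentile 37.9). Slc2a4 (chr11:69942539-69948188, minus strand) had a median of 47.7 for H3K27ac and 55.8 for H3K4me3, with H3K4me3 peaks in all 35 libraries, in marrow cells that are not among the classical GLUT4 tissues. In order of median H3K27ac percentile the genes ran Hk1, Slc2a3, Slc2a8, Slc2a1, Hk2, Slc2a6, Slc2a4, Hk3 and Hkdc1. This order pools all 6 groups and did not hold within each: Slc2a3 was above Hk1 in HSCs (81.8 and 85.4 against 72.3 and 74.5) and below Hk1, Hk2, Slc2a1 and Slc2a8 in LPS+IFN-γ BMDMs (63.8 and 62.4). The step from Slc2a4 (47.7, SD 10.8) to Hk3 (29.8, SD 14.3) was larger than the SD over libraries of both genes. None of the other steps between neighbours in this order exceeded the SDs of both genes.

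The upstream bases of Slc2a1, Slc2a6 and Slc2a8 are shown because the Slc2a6 promoter, with few top-ranked peaks, holds more CpG than the other two (RefSeq, GRCm38.p6, 5′ to 3′, CpG in capitals). They are again the longest runs free of annotated exons. Their positions are chr4:119108495-119108710 on the plus strand for Slc2a1, and chr2:27027999-27028248 and chr2:32982084-32982333 on the minus strand for Slc2a6 and Slc2a8.
Slc2a1 promoter: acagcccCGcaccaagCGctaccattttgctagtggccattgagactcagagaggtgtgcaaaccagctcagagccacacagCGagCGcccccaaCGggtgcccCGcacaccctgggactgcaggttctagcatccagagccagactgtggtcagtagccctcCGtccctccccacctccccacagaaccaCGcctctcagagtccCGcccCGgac
Slc2a6 promoter: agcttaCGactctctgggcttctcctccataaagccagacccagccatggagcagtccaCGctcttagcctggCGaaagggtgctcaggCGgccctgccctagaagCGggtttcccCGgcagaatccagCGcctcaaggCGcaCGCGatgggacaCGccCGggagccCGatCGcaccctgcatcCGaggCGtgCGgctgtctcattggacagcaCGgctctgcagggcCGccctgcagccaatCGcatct
Slc2a8 promoter: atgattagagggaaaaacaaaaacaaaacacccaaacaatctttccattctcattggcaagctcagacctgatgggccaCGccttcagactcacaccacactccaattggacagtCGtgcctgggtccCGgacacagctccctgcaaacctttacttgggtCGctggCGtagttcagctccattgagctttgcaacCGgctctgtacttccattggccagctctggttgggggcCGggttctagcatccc

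The Slc2a6 window held 22 CpG (percentile 77.7), more than Slc2a1 with 18 (71.1) or Slc2a8 with 14 (64.5), yet Slc2a6 was the transporter of these with the fewest top-ranked peaks. Slc2a1 and Slc2a6 each held 2 GC boxes, and Slc2a8 held 5 CCAAT boxes and no GC box. These are descriptions of 8 windows and carry no test.

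**Figure D1:**
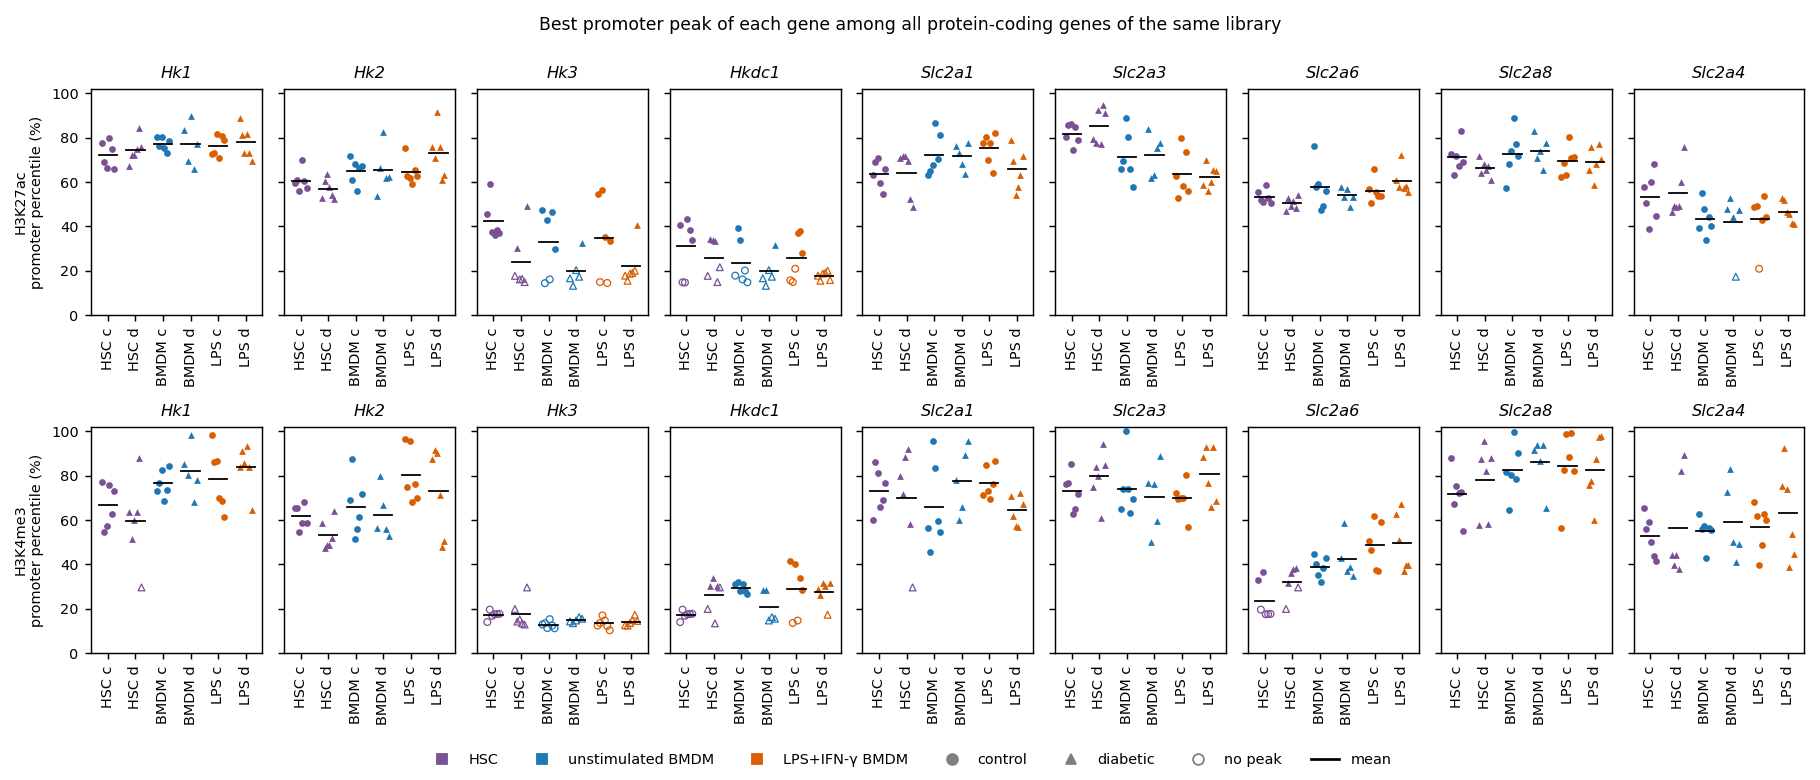
Promoter percentile (y axis, percent of protein-coding genes with a lower best promoter peak) of the 9 genes in every library of both marks, by cell state and disease (c, control; d, diabetic); filled points have a promoter peak, open points have none, and lines are group means. Hk1 H3K27ac stays between 65.9 and 89.7 in all groups, and Hk3 has no filled point for H3K4me3.

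The first comparison asked how the genes of glucose entry differ between unstimulated macrophages and the HSC preparations. No promoter of the 9 genes passed the test in either mark, but single regions within the loci did. In BMDMs an intronic region of Hk1 and several regions inside Hk2 were higher, and regions at the downstream Slc2a3 promoter, upstream of Hk3, inside Hk1 and at the Slc2a4 promoter were lower. For promoters, 0 of 9 members were called for H3K27ac in control and 0 of 9 in diabetic cells (limma, adjusted p under 0.05), where 16.1% and 15.9% of 16825 tested genes were called. For H3K4me3, 0 of 8 fitted members were called in control and 0 of 8 in diabetic cells, where 5.34% and 0.766% of 17105 were called. At an unadjusted limma p under 0.05 the counts were 1 and 2 members for H3K27ac and 2 and 1 for H3K4me3. Over all genes these counts were 4870 and 4879 of 16825 for H3K27ac, and 4189 and 2903 of 17105 for H3K4me3. The exact permutation test adjusted over all genes called none of these members.

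Slc2a3 came nearest among the promoters. Its H3K27ac percentile in diabetic HSCs ran from 77 to 94.5 (median 85.5), and in unstimulated diabetic BMDMs it was 83.7, 62.0, 63.2, 75.3 and 77.6. The groups overlapped, with 3 of 5 BMDM libraries below every HSC library. The difference was −13.0 percentile points (SE 4.91, limma adjusted p = 0.0607; exact permutation p = 0.0519, two-sided), and without unstimulated diabetic replicate 1 it was −15.9 (limma adjusted p = 0.0314), and on log2 rank it was also called (adjusted p = 0.0297). In control cells the means were 71.4 ± 11.3 against 81.8 ± 4.71 (SD, n = 6 each; limma adjusted p = 0.124), and the difference was −5.64 (limma adjusted p = 0.515) without the 2 unstimulated libraries that go against their labels. Without unstimulated control replicate 3 it was −14.0 and called (limma adjusted p = 0.0362). Slc2a4, the muscle and fat carrier, differed by −13.0 for H3K27ac in diabetic cells, with means of 41.9 ± 14.1 (n = 5) against 54.9 ± 11.4 (n = 6; limma adjusted p = 0.116).

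For H3K4me3 Hkdc1, Slc2a6 and Hk1 had an unadjusted limma p under 0.05. Hkdc1 had a peak in 6 of 6 unstimulated control BMDM libraries, with percentiles of 26.7 to 31.9 (median 29.5), and in 0 of 6 control HSC libraries, whose shared lowest percentile ran from 14.0 to 19.6 (median 17.6). The groups did not overlap (difference 12.2, limma adjusted p = 0.0903; exact permutation p = 0.00216, two-sided, unadjusted and the smallest that 6 against 6 allows). The control HSC H3K4me3 lists were shorter, with a median of 49624 peaks against 161118 in unstimulated control BMDMs, and the Hkdc1 peaks ranked from 70677 to 113833, while 5 of 6 HSC lists ended before rank 70677. Slc2a6 had peaks in 6 of 6 against 2 of 6 libraries, with means of 38.9 ± 4.68 and 23.7 ± 8.74 (SD, n = 6 each; limma adjusted p = 0.0945; exact permutation p = 0.0108, two-sided, unadjusted). Without the 3 libraries the adjusted p values were 0.165 for Hkdc1 and 0.228 for Slc2a6. Hk1 H3K4me3 averaged 82.1 ± 11 (n = 5) in diabetic BMDMs against 59.3 ± 19.0 (n = 6) in diabetic HSCs (limma adjusted p = 0.126). At genes present in all cells (Actb, Gapdh, Rpl13a) the H3K4me3 percentile was also higher in unstimulated control BMDMs, with means of 81.4 against 65.1 in control HSCs, and the part of this in the member differences was not tested. For H3K27ac this list averaged 79.6 against 86.0 in control and 78.3 against 83.0 in diabetic cells. Of its genes only Rpl13a was called for H3K27ac, lower in BMDMs by −14.0 and −14.4 points (limma adjusted p = 0.0154 and 0.0174). The part of this in the H3K27ac differences was not tested either. Over the 8 fitted members the median H3K4me3 difference was 6.94 in control and 7.85 in diabetic cells, beside 1.28 and 0.391 over all genes.

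Regions gave a finer view of the same loci. A total of 44612 consensus H3K27ac regions were formed from the 20000 best peaks of each library, and 40 lay in the member loci: 10 at Hk1, 6 each at Hk2, Hk3 and Slc2a1, 4 each at Slc2a3 and Slc2a8, and 2 each at Slc2a6 and Slc2a4. Hkdc1 had none. Between unstimulated control BMDMs and control HSCs, 8 of 40 were called (20.0%, 3 higher and 5 lower), where 30.3% of all 44507 tested regions were called. In diabetic cells 10 of 40 were called (25%, 3 higher and 7 lower), beside 27.3% of all regions. Both shares were below the background.

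**Figure D2:**
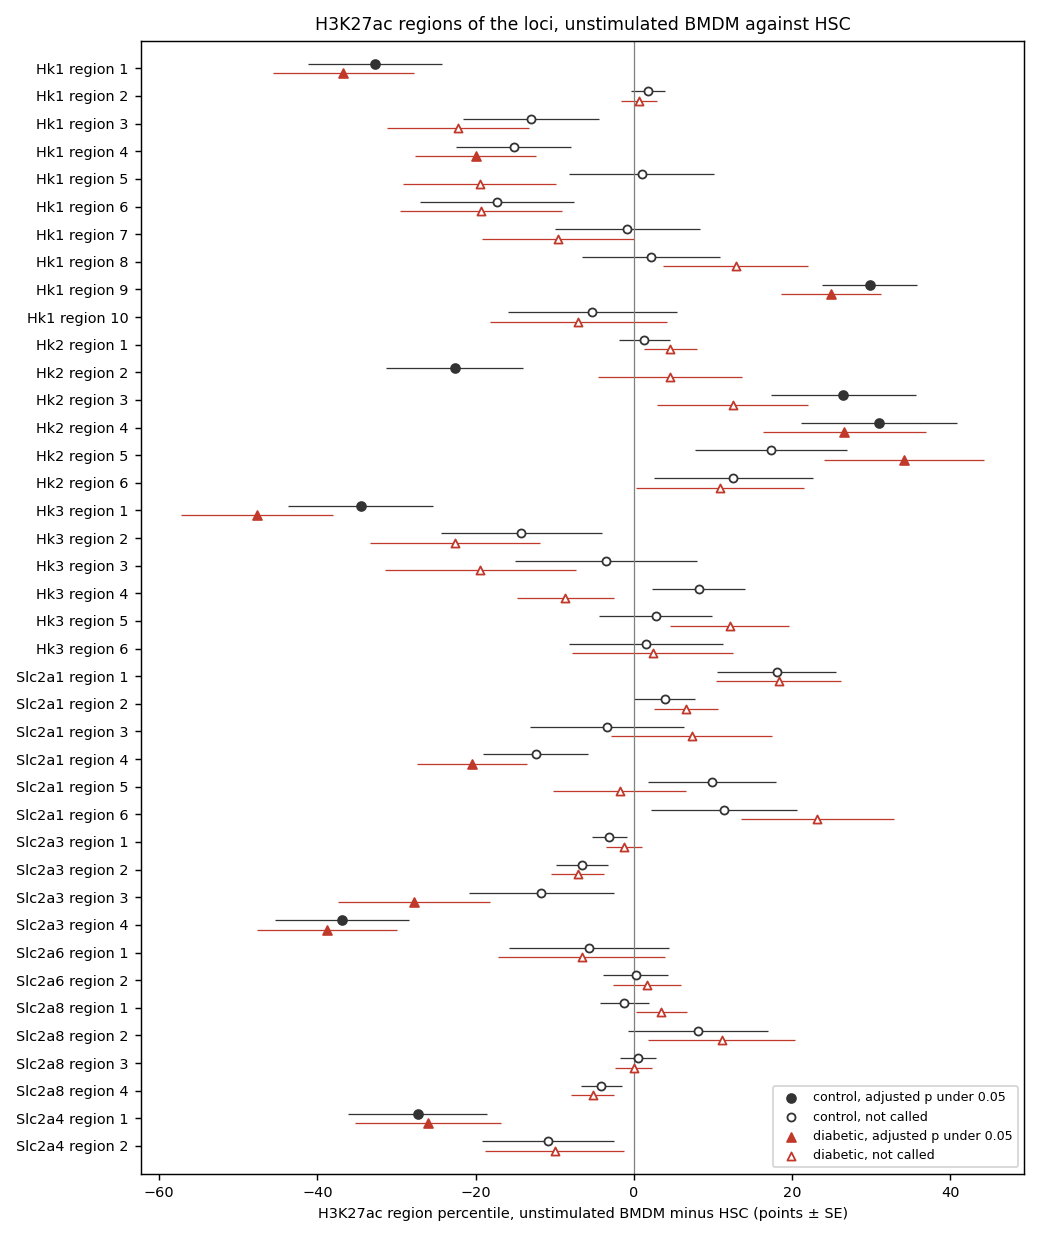
Difference in H3K27ac region percentile between unstimulated BMDMs and HSCs for the 40 regions of the member loci (y axis) in control and diabetic cells, in percentile points with limma SE (x axis); filled points were called at an adjusted p under 0.05. Hk1 and Hk2 hold the regions called higher, and Slc2a3, Hk3, Hk1 and Slc2a4 hold regions called lower in both diseases.

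The Hk1 region called higher lies in an intron at chr10:62297491-62301705, about 80 kb downstream of the first start site (its middle at 80310 bp). In control HSCs its percentile ran from 37.1 to 59.5 (median 48.7), and in unstimulated control BMDMs from 65.4 to 86.5 (median 80.0). Every BMDM library was above every HSC library. The region rose by 29.8 percentile points in control BMDMs (SE 6.02, limma adjusted p = 0.000135; exact permutation p = 0.00216, two-sided). In diabetic cells the HSC values ran from 23.5 to 74.6 (median 57.5) and the BMDM values were 78.9, 78.0, 81.5, 74.3 and 76.0, so the lowest BMDM library lay just under the highest HSC library. The region rose there by 24.9 points (SE 6.31, limma adjusted p = 0.00237), and it kept its limma call without each library in turn in both diseases. The exact permutation test adjusted over all regions did not call it in diabetic cells (p = 0.0612). With LPS+IFN-γ the region stayed at that level, with means of 77.3 ± 8.49 in control and 79.6 ± 7.75 in diabetic BMDMs (SD, n = 6 each).

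A second Hk1 region, at chr10:62343271-62344326 and 549 bp upstream of the nearest start site, had the opposite pattern. It had a peak in 5 of 6 control and 5 of 6 diabetic HSC libraries and in 0 of 11 unstimulated BMDM libraries. Its percentile in control HSCs ran from 9.06 to 71.1 (median 41.9) and in control BMDMs from 4.36 to 18.8 (median 8.47), and 4 of 6 BMDM libraries lay below every HSC library. The region fell by 32.7 points in control BMDMs (SE 8.45, limma adjusted p = 0.00237) and by 36.7 in diabetic BMDMs (SE 8.86, limma adjusted p = 0.00144), where the adjusted exact permutation test did not call it (p = 0.0662). Between these regions the marked Hk1 promoter itself, in the region at chr10:62336667-62342996 with Hk1os, kept group means of 87.6 to 89.4 in all 6 groups.

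Hk2, the inducible hexokinase, had 4 called regions besides an uncalled promoter region (group means 77 to 86.9). An intronic region at chr6:82750944-82752038 ran from 38.7 to 63.8 (median 48.7) in control BMDMs and from 8.66 to 36.1 (median 21.6) in control HSCs. The groups did not overlap, and the region rose by 26.5 points (SE 9.12, limma adjusted p = 0.0224; exact permutation p = 0.00216, two-sided). A region over coding sequence at chr6:82738008-82738645 rose by 31.0 in control and 26.6 in diabetic BMDMs (limma adjusted p = 0.0132 and 0.0470), and another at chr6:82728570-82729286 rose by 34.2 in diabetic BMDMs (adjusted p = 0.00836). At the last of these the diabetic BMDM values were 70.9, 32.8, 44.2, 44.6 and 47.8, all above the diabetic HSC range of 7.74 to 23.5, where no library had a peak. An intronic region at chr6:82769394-82770351, with its middle 4582 bp downstream of the first start site, fell by 22.6 in control BMDMs (limma adjusted p = 0.0402). Without the 2 unstimulated libraries against their labels, the coding region moved to 23.6 (adjusted p = 0.0986) and the region that fell to −22.9 (adjusted p = 0.0724), while the intronic region was still called (27.9, adjusted p = 0.0394). Its call was lost without unstimulated control replicate 2, HSC control replicate 5 or HSC control replicate 6, and on fold enrichment (adjusted p = 0.0563), and that of the region that fell without unstimulated control replicate 2, 4 or 5 or HSC control replicate 1, 4 or 6.

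At Slc2a3 the region over the downstream promoter was called in both diseases. The region over it, at chr6:122740923-122742735, ran from 54.1 to 75.9 (median 66.6) in control HSCs and from 14.2 to 48.3 (median 27.5) in unstimulated control BMDMs. In diabetic cells the HSC values ran from 45.5 to 69.4 (median 55.8) and the BMDM values were 11.4, 14.9, 20.7, 35.1 and 8.28. The groups did not overlap in either disease, and the region fell by 36.9 points in control (SE 8.46, limma adjusted p = 0.000670) and 38.8 in diabetic BMDMs (SE 8.87, limma adjusted p = 0.000783; exact permutation p = 0.00216, two-sided, in both). The control difference was −42.9 (limma adjusted p = 0.000393) without the 2 unstimulated libraries against their labels. At the upstream Slc2a3 promoter region the group means were 92.0 and 93.6 in HSCs against 85.4 and 86.5 in unstimulated BMDMs, and neither difference was called (limma adjusted p = 0.117 and 0.112). The diabetic difference there was called with a replicate block (−8.39, limma adjusted p = 0.0485) and on log2 rank (adjusted p = 0.0268). An intronic region at chr6:122764207-122765576, inside a RefSeq feature named as an enhancer of the neighbouring gene Nanog, fell by 27.8 in diabetic BMDMs (limma adjusted p = 0.0248), with BMDM values of 11.4, 50.6, 20.7, 68.4 and 70.3. For H3K4me3, described without a test, the matching region was higher in unstimulated BMDMs (means 89.1 control and 80.0 diabetic) than in HSCs (68.2 and 71.2). The H3K27ac means there were 61.5 and 44.3 in unstimulated BMDMs and 73.2 and 72.1 in HSCs, the reverse order.

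At Hk3, the myeloid hexokinase, the called region lies outside the gene at chr13:55022348-55023804, with its middle at −1691 bp from the first start site. It had a peak in 12 of 12 HSC libraries, 3 of 6 unstimulated control and 0 of 5 unstimulated diabetic BMDM libraries. Control HSC values ran from 46.4 to 80.6 (median 60.1) and control BMDM values from 7.48 to 52.2 (median 26.6), and the region fell by 34.5 points (SE 9.16, limma adjusted p = 0.00303). In diabetic cells it fell by 47.6 (SE 9.61, limma adjusted p = 0.000178), from an HSC median of 65.9 to BMDM values that were all at the level of no peak. Without the 2 libraries against their labels the control difference was −33.2 (adjusted p = 0.0110). The whole neutrophil marker list, whose cells also express Hk3, averaged 34.6 and 33.3 in HSCs and 26.8 and 24.3 in unstimulated BMDMs, and its part in this result was not tested.

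Among the other transporters, the Slc2a4 promoter region at chr11:69944413-69949096 fell by 27.3 points in control BMDMs (72.0 ± 15.6 in HSCs and 44.7 ± 18.2 in BMDMs, SD, n = 6 each; limma adjusted p = 0.0142) and by 26.0 in diabetic BMDMs (limma adjusted p = 0.0286). In control cells the adjusted exact permutation test did not call it (p = 0.0804), and without the 2 unstimulated libraries against their labels the difference was −25.8 (limma adjusted p = 0.0424). The diabetic BMDM values were 55.6, 69.1, 49.4, 14.5 and 64.1, and they overlapped the HSC range of 68.6 to 89.3 at 1 library. An intronic Slc2a1 region at chr4:119123291-119128918 fell by 20.4 in diabetic BMDMs (limma adjusted p = 0.0228), and an Hk1 region at chr10:62325605-62328646 fell by 20.0 there (limma adjusted p = 0.0437). The Slc2a4 call in diabetic cells was lost without unstimulated replicate 5, HSC replicate 5 or HSC replicate 6 (adjusted p up to 0.17), and the Slc2a1 call without unstimulated replicate 5 (adjusted p = 0.0748) or with regions from the 10000 best peaks (adjusted p = 0.0861). In diabetic cells the call at the Slc2a3 intron was lost without unstimulated replicate 1 or 4 or HSC replicate 1 or 5 (adjusted p up to 0.136). The diabetic call at the first Hk2 coding region held only when unstimulated replicate 1 or 2 or HSC replicate 5 was the library left out, and that at the last Hk1 region only when unstimulated replicate 2 or 5 or HSC replicate 2 was. Further calls were lost on log2 rank and by the adjusted exact permutation test: the Hk2 region that fell (adjusted p = 0.117 and 0.0656), the first Hk2 coding region in diabetic cells (0.135 and 0.146), the Slc2a3 intron (0.0785 and 0.127) and the last Hk1 region (0.101 and 0.0612). Slc2a6 and Slc2a8 had no called region in this comparison. The lower regions moved with lower stem and progenitor markers and a lower Gata1, whose part in the results was not tested.

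The DNA at 4 of these regions is shown because they carried the differences (RefSeq genome, GRCm38.p6, minus strand, 5′ to 3′, CpG in capitals). Each stretch is the longest run free of annotated exons within 200 bases around the median summit of the cell type with the higher signal. Summits of single libraries ran from 122741086 to 122742332 at the downstream Slc2a3 promoter and from 62299389 to 62300731 at the Hk1 intron. Some of them therefore lie outside the bases shown. They are chr6:122742023-122742098 for the downstream Slc2a3 promoter region, chr6:122764751-122764950 for the Slc2a3 intron, chr10:62300582-62300781 for the Hk1 intron and chr13:55023065-55023264 upstream of Hk3.
Slc2a3 downstream promoter: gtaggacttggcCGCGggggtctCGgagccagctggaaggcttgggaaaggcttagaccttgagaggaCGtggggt
Slc2a3 intron: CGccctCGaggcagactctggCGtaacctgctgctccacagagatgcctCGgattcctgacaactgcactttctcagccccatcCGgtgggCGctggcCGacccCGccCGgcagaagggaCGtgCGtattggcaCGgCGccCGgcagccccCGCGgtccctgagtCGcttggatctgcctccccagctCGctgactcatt
Hk1 intron: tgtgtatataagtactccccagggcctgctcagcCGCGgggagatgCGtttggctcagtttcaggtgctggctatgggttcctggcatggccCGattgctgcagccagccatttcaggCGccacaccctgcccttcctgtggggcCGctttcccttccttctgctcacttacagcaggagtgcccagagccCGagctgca
Hk3 upstream: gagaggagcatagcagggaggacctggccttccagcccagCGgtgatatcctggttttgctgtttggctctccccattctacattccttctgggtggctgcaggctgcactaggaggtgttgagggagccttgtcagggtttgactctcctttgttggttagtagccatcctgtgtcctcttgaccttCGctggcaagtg

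The stretches of 200 bases held 18 CpG in the Slc2a3 intron, 7 in the Hk1 intron and 2 upstream of Hk3, against a median of 5 in windows of the same length at the middle of all 44612 regions (percentiles 86.7, 61.0 and 20.2). The Slc2a3 intron held 1 AP-1 site (TGANTCA on either strand, found in 4% of all windows), and none of the 4 stretches held a PU.1 core (GAGGAA, 18.1%).

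**Figure D3:**
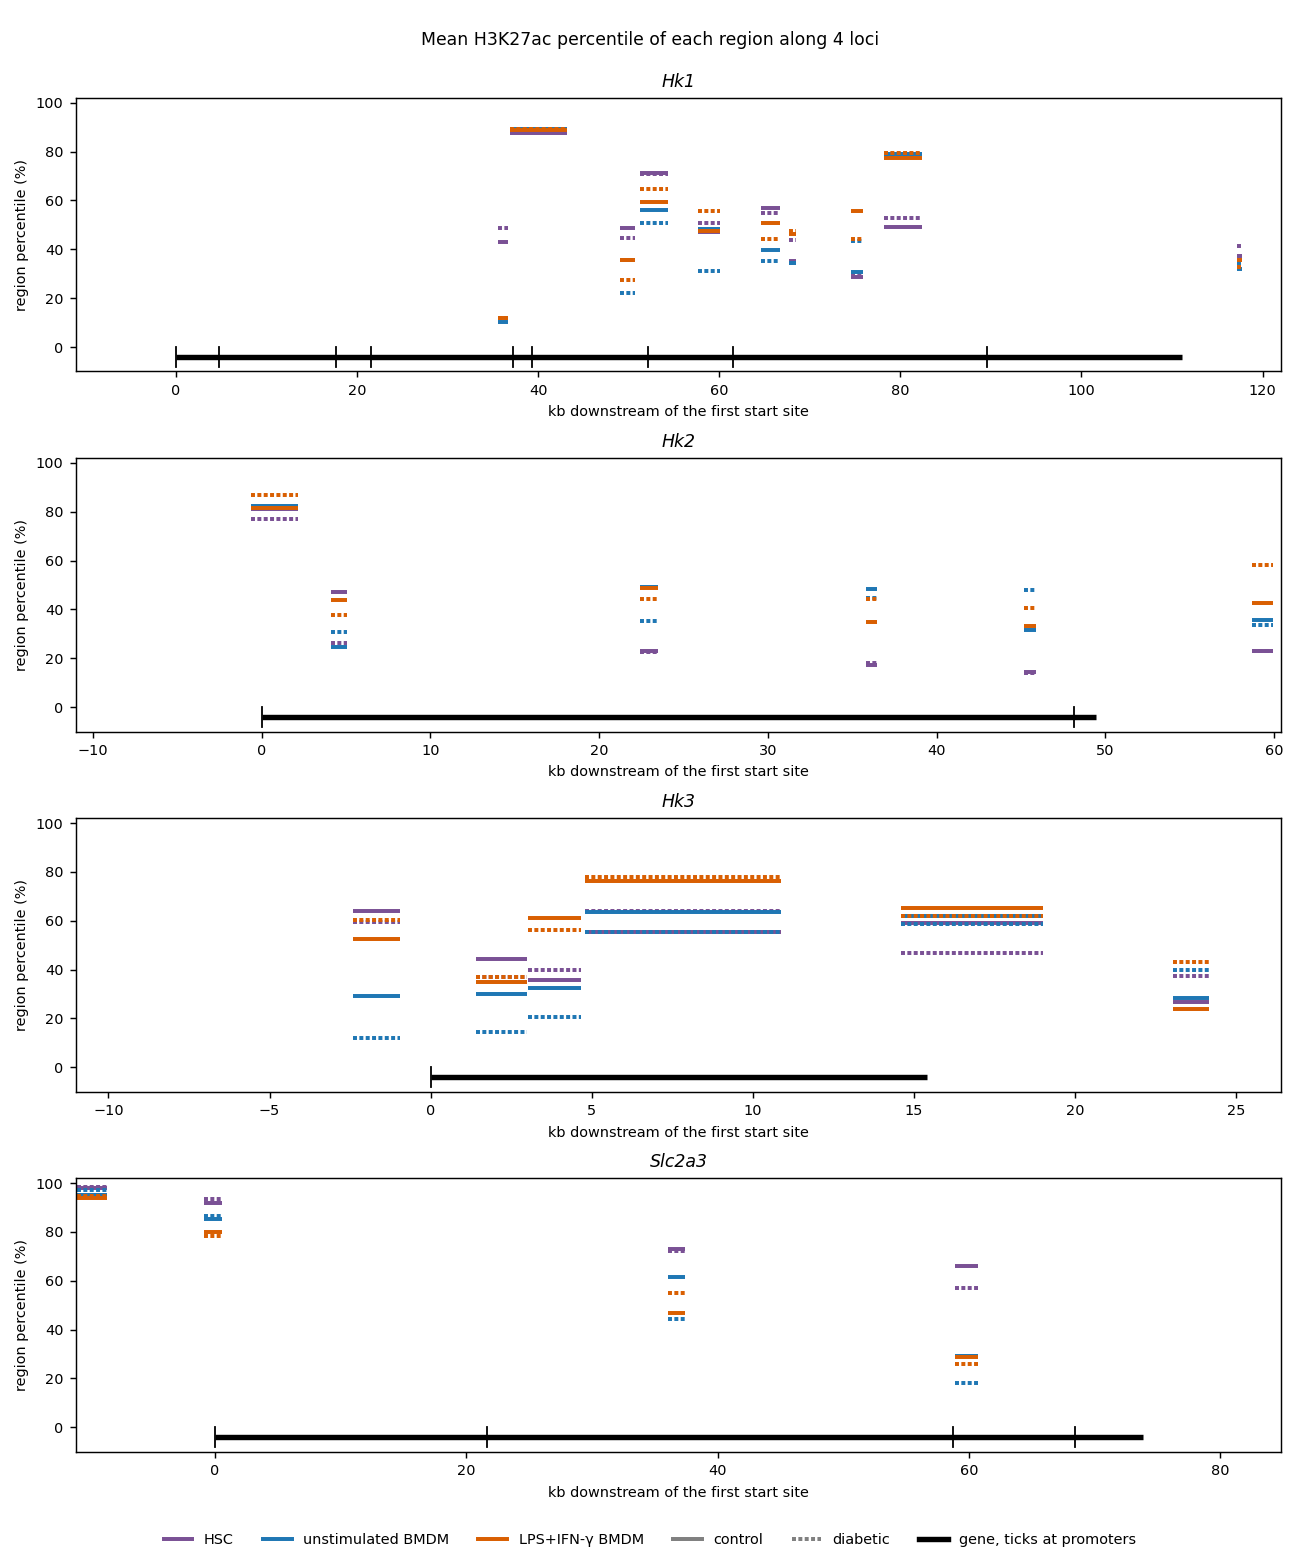
Mean H3K27ac region percentile of each group (y axis) along the Hk1, Hk2, Hk3 and Slc2a3 loci, by distance of each region from the first start site in kb, positive downstream (x axis). At Hk1 the BMDM means exceed the HSC means about 80 kb downstream (77.3 to 79.6 against 49.0 and 52.9), and at Slc2a3 the HSC means exceed them about 60 kb downstream.

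The second comparison asked what LPS+IFN-γ did to these loci. Hk3 was the member with called regions: both its upstream region and its gene body rose with stimulation in BMDMs from diabetic mice. At 40 regions, 5 in control and 9 in diabetic BMDMs had an unadjusted limma p under 0.05 (12.5% and 22.5%), beside 6.09% and 21% of all regions. For promoters no member was called (limma, 0 of 9 H3K27ac and 0 of 8 H3K4me3 in each disease; 0 and 1 H3K27ac members and 0 and 0 H3K4me3 members at an unadjusted p under 0.05 in control and diabetic cells). The background was 0% of genes for H3K27ac in control, 2.92% in diabetic, and 0% for H3K4me3 in both. At an unadjusted limma p under 0.05 it was 886 and 3128 of 16825 genes for H3K27ac, and 565 and 1164 of 17105 for H3K4me3. Among regions, 0 of 40 were called in control and 2 of 40 (5.00%) in diabetic BMDMs, against 0% and 4.98% of all regions, so the share of member regions was that of the background.

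The region upstream of Hk3 had percentiles of 11.4, 4.92, 20.7, 14.5 and 8.28 in unstimulated diabetic BMDMs, none with a peak. In LPS+IFN-γ diabetic BMDMs it had a peak in 6 of 6 libraries and ran from 33.7 to 76.1 (median 63.5). The groups did not overlap, and the region rose by 48.2 points (SE 9.61, limma adjusted p = 0.00202; unadjusted exact permutation p = 0.00433, two-sided). Its stimulated mean of 60.2 ± 15.1 (SD, n = 6) was close to the diabetic HSC mean of 59.5 ± 18.6 (SD, n = 6). The call held without each library in turn (adjusted p 0.00111 to 0.00964). It was lost with regions built from the 10000 best peaks (difference 19.1, limma adjusted p = 0.0515) and by the exact permutation test adjusted over all regions (p = 0.137). That test called no region at all in this comparison, so its outcome does not single out this region.

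A region over the Hk3 gene body, at chr13:55010512-55016587, had values of 60.8, 61.0, 51.0, 52.9 and 50.3 in unstimulated and 73.2 to 86.7 (median 76.1) in LPS+IFN-γ diabetic BMDMs. These groups did not overlap either, and the region rose by 22.6 points (SE 6.14, limma adjusted p = 0.0212; unadjusted exact permutation p = 0.00216, two-sided). The call was lost without LPS+IFN-γ diabetic replicate 3 or unstimulated diabetic replicate 6 (adjusted p up to 0.0661), on fold enrichment in place of the p-value (adjusted p = 0.0885) and by the adjusted exact permutation test (p = 0.120). The exact test could not call this region here, since its unadjusted p was already the smallest possible. Another Hk3 region, at chr13:55016705-55018353, ran from 6.28 to 82.0 (median 62.2) with and from 8.28 to 47.1 (median 14.5) without stimulation. It was not called (difference 35.9, limma adjusted p = 0.0668). The Hk3 promoter had an H3K27ac peak in 1 of 5 unstimulated and 1 of 6 LPS+IFN-γ diabetic libraries, so no matching difference was seen at the start site itself.

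In control BMDMs the same Hk3 regions differed in the same direction without passing the test. The gene body region averaged 76.4 ± 6.53 with and 63.7 ± 9.84 without stimulation (SD, n = 6 each), a difference of 12.6 (limma adjusted p = 0.797). Without the 3 libraries that go against their labels it ran from 75.6 to 83.9 (median 77.8, n = 5) with and from 53.3 to 59.6 (median 58.9, n = 4) without stimulation, with no overlap, and the difference was 21.1 (limma adjusted p = 0.0978). The 3 libraries left out had values of 64.3 with stimulation and 78.7 and 73.1 without, each on the side of the opposite label. At the other regions only the stimulated library left out was on that side, with 6.81 at the region chr13:55016705-55018353 and 26.7 upstream of Hk3 against at least 55.8 and 38.7 in the stimulated libraries kept. The 2 unstimulated libraries left out had 53.0 and 27.9 at the first of these and 18.8 and 34.4 at the upstream one, within the ranges of those kept (14.2 to 54.1 and 7.48 to 52.2). The region chr13:55016705-55018353 moved from 28.7 (adjusted p = 0.734) to 43.6 (adjusted p = 0.0587), and the upstream region from 23.1 (adjusted p = 0.734) to 26.9 (adjusted p = 0.224). The 3 libraries were chosen on stimulated regions outside the member loci, so more stimulation calls without them follow in part from that choice.

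At promoters Hk2 and 3 transporters are given as examples of differences that did not pass. Hk2 H3K4me3 averaged 80.3 ± 12.6 with and 66.0 ± 12.9 without stimulation in control cells (SD, n = 6 each; limma adjusted p = 1.000) and 73.1 ± 19.9 (n = 6) and 62.2 ± 11.1 (n = 5) in diabetic cells (limma adjusted p = 0.821). Slc2a1 H3K4me3 differed by 11.1 in control and by −13.3 in diabetic cells (limma adjusted p = 1.000 and 0.792). Slc2a3 H3K27ac averaged 62.4 ± 5.11 (n = 6) with and 72.3 ± 9.43 (n = 5) without LPS+IFN-γ in diabetic BMDMs, a difference of −9.92 (limma adjusted p = 0.266; exact permutation p = 0.0563, two-sided). In control cells it averaged 63.8 ± 10.6 against 71.4 ± 11.3 (SD, n = 6 each), and the difference was −14.3 (limma adjusted p = 0.247) without the 3 libraries. Slc2a3 H3K4me3 differed the other way in diabetic cells, by 10.7 (80.9 ± 12.2, n = 6, against 70.2 ± 15.2, n = 5; limma adjusted p = 0.813). Slc2a6 H3K4me3 differed by 9.75 in control cells (48.7 ± 10.5 against 38.9 ± 4.68, n = 6 each; limma adjusted p = 1.000). Slc2a6 H3K27ac ran from 55.5 to 72.4 (median 58.0) with stimulation, overlapping the unstimulated values of 57.9, 53.2, 56.7, 48.8 and 53.1 (difference 6.43, limma adjusted p = 0.383; exact permutation p = 0.0411, two-sided, unadjusted). For H3K4me3, described without a test, the region over the Slc2a6 gene body at chr2:27021553-27025675 had means of 58.4 and 60.1 in stimulated, 44.2 and 35.6 in unstimulated BMDMs and 27.7 and 24.9 in HSCs. Downstream of Slc2a8, a region at chr2:32966028-32968879 averaged 94.4 with and 87.7 without stimulation in diabetic BMDMs (limma adjusted p = 0.0783), and it was called without LPS+IFN-γ diabetic replicate 5 or 6 (adjusted p = 0.0462 and 0.0183).

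The third comparison asked whether diabetes left a mark on these loci in HSCs and in BMDMs grown at 5 mmol/L glucose. No member promoter or region was called in any of the 3 cell states. With limma, 0 of 9 H3K27ac promoters were called in HSCs, unstimulated BMDMs and LPS+IFN-γ BMDMs, where 0%, 0% and 0% of 16825 genes were called. An unadjusted p under 0.05 was found for 1, 0 and 2 members, beside 318, 980 and 785 of the 16825 genes. For H3K4me3, 0 of 8 were called in each state (background 0%, 0% and 0%), and no member had an unadjusted limma p under 0.05. Among regions 0 of 40 were called in each state, where 0%, 0.00449% and 0% of all regions were called. Of the 40, 1, 0 and 1 had an unadjusted p under 0.05, beside 2.83%, 6.30% and 4.53% of all regions. The exact permutation test adjusted over all features called no member either, but its p cannot fall below 0.00216. After adjustment a call needs many features near that floor, so this outcome decides little.

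Hk1 differed by disease by less than the SD of its libraries at the H3K27ac promoter. The control and diabetic H3K27ac means were 72.3 ± 5.97 and 74.5 ± 5.67 in HSCs, 77.2 ± 2.81 and 77.1 ± 9.79 in unstimulated BMDMs, and 76.3 ± 4.62 and 77.9 ± 7.28 in LPS+IFN-γ BMDMs (SD, n = 6, except 5 in unstimulated diabetic). In each state the groups overlapped. Its H3K4me3 means were 66.8 and 59.3, 76.5 and 82.1, and 78.4 and 83.7 in the same order, with SDs of 6.03 to 19.0.

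Hk3 gave the largest promoter difference. Its H3K27ac promoter had a peak in 6 of 6 control HSC libraries, with percentiles of 35.9 to 59.2 (median 38.0), and in 2 of 6 diabetic HSC libraries, with percentiles of 14.9 to 49.1 (median 17.0). The difference of −18.2 (SE 6.66, limma adjusted p = 1.000; exact permutation p = 0.0260, two-sided, unadjusted) did not pass over all genes. Peaks of the flanking H3K27ac regions can count here, since these regions reach into the promoter window. The diabetic HSC lists were also shorter, with a median of 92674 peaks against 130591, and the control peaks at Hk3 had a median rank of 47814. The Hk3 mean was also lower in diabetic unstimulated BMDMs (20.0 against 32.8, peaks in 1 of 5 and 4 of 6 libraries). In LPS+IFN-γ BMDMs it was 22.0 against 34.9 (1 of 6 and 4 of 6). Neither was called, and the diabetic lists were again shorter (medians 105751 against 132443, and 93502 against 129022). The part of list length in these counts was not tested.

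Other members gave differences of both signs that did not pass. Slc2a1 H3K4me3 in LPS+IFN-γ BMDMs ran from 69.6 to 86.4 (median 74.7) in control and from 56.7 to 72.3 (median 64.6) in diabetic libraries, with overlap (difference −12.6, limma adjusted p = 0.981; exact permutation p = 0.0130, two-sided, unadjusted). Slc2a1 H3K27ac differed the same way there, by −9.35 (65.9 ± 9.22 against 75.3 ± 6.96, n = 6 each; limma adjusted p = 0.989), while Hk2 H3K27ac differed by 8.58 (73.1 ± 11 against 64.5 ± 5.71, n = 6 each; limma adjusted p = 0.989). Without the library against its label these were −12.7, −11.6 and 8.74. Hk2 H3K4me3 was lower in diabetic HSCs (53.3 ± 6.73 against 61.8 ± 5.19, n = 6 each; limma adjusted p = 1.000; exact permutation p = 0.0346, two-sided, unadjusted), with 0 of 6 diabetic and 4 of 6 control libraries among the 10000 best. An Hk2 intron region, at chr6:82769394-82770351, showed the lowest limma p by disease in HSCs (26.2 ± 11.5 against 47.3 ± 13.0, n = 6 each; difference −21.1, adjusted p = 1.000). Hkdc1 H3K4me3 differed by 9.02 in HSCs and by −8.78 in unstimulated BMDMs (limma adjusted p = 1.000 for both), which are differences between a called peak and none. Over the 9 genes and both marks, 119 pairs of gene and comparison were tested, of which 10 had a limma p and 10 an exact permutation p under 0.05 before adjustment.

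Whether stimulation or cell state acted differently in diabetic and control cells was tested as a difference of differences. No member promoter or region was called in either, with 0% of promoters of both marks and 0% of regions called. The lowest adjusted p of a member promoter was 0.830 (limma). For stimulation and cell state, 0 and 1 of 40 regions had an unadjusted p under 0.05, beside 7.21% and 3.38% of all regions. The Hk3 regions called with LPS+IFN-γ in diabetic but not in control BMDMs were therefore not shown to differ between the diseases. The comparisons of unstimulated BMDMs with HSCs and with LPS+IFN-γ BMDMs share the same unstimulated libraries, so the fall and the rise of the region upstream of Hk3 in diabetic cells are not independent.

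Other genes of glucose entry and phosphorylation were read from a list of 18, of which 15 were fitted for H3K27ac and 16 for H3K4me3. In H3K27ac, Arrdc4, an arrestin that lowers glucose uptake, rose by 22.3 points in control and 12.9 in diabetic BMDMs against HSCs (limma adjusted p = 0.000123 and 0.0380). Its relative Txnip fell by 13.5 and the carrier Slc2a10 by 21.8 in diabetic cells (adjusted p = 0.0351 and 0.00918), and the difference between the diseases was called for no gene. In H3K4me3 the carrier Slc2a7 rose by 15.7 in control BMDMs (adjusted p = 0.0455). These were 1 of 15, 3 of 15, 1 of 16 and 0 of 16 genes, beside the backgrounds of 16.1%, 15.9%, 5.34% and 0.766%.

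Later glycolytic enzymes and lactate transporters formed a list of 23, of which 22 were matched and 21 fitted. In control BMDMs against HSCs 3 rose and 1 fell in H3K27ac: the enolase Eno2 rose by 23.8 (limma adjusted p = 8.71e-06), the phosphoglycerate mutase Pgam1 by 18.9 (adjusted p = 0.00125) and the triosephosphate isomerase Tpi1 by 13.0 (adjusted p = 0.0347), and the regulator Pfkfb1 fell by 17.6 (adjusted p = 0.0204). In diabetic cells 4 rose and 2 fell, with Pfkfb1 falling by 23.4 (adjusted p = 0.00304), Tpi1 rising by 21.5 (adjusted p = 0.000737), Pgam1 by 20.8 (adjusted p = 0.000723) and the phosphofructokinase Pfkp by 17.0 (adjusted p = 0.00353). The medians of the 21 were 2.44 and 5.81, beside −0.388 and −0.299 over all genes. In H3K4me3 Gapdh rose by 28.4 and Tpi1 by 27.6 in control cells (adjusted p = 0.0305 and 0.0349). Gapdh also belongs to the genes present in all cells described above, so its rise is not a separate result. Over all genes the share called was 16.1% in control and 15.9% in diabetic cells for H3K27ac, and 5.34% in control cells for H3K4me3. The control H3K27ac count thus lay near the background. Neither list had a called gene with LPS+IFN-γ or by disease (limma, in both marks).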

How the data were processed

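ChIP-seq of H3K27ac and H3K4me3 gave 70 peak lists, 1 per library. 36 input samples had no list used here. The submitters' processing notes name Bowtie2 2.2.6, FastQC 0.11.3, MACS2 2.2.7.1, Picard 2.18.14 and 2.19.2, Trim Galore 0.3.3, bedtools 2.19.1, cutadapt 1.8 and the builds GRCm38 and mm10, for single reads of 50 bases. The deposited lists hold a score, a fold enrichment, a −log10 p-value and a −log10 q-value for each peak, as the authors' peak caller wrote them, and the authors called peaks per library. Depth is unknown, and 0 columns of other samples were present.

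Peaks were ranked within each list on the −log10 p-value. Promoters (start sites of GENCODE M21 with 1000 bp on either side, overlap of at least 1 bp) took the best peak of a gene. Consensus regions merged the 20000 best peaks of each library and were kept when at least 2 libraries held them. Percentiles were fitted with limma 3.58.1 (R 4.3.3, and data.table version 1.17.8; 1 mean per group over the 35 libraries of a mark, trend and robust options, features with a peak in at least 6 libraries), with Benjamini-Hochberg adjustment over all features and calls at an adjusted p under 0.05. Exact permutation tests were two-sided over 924 or 462 arrangements of libraries. Their smallest possible p was 0.00216, so after adjustment over all features a call needs many features near that floor. The fit was tested on simulated data. Other steps used Python 3.11.15, numpy 2.4.6, pandas 2.3.3 and matplotlib 3.10.9. Alternatives were other windows, overlaps, peak thresholds, rank columns and filters, a replicate block, each library left out, and, chosen after seeing the data, the fits without libraries that go against their labels.

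All 9 members were named in every group. For the lists of 18 glucose entry and 23 later glycolytic genes, up to 4 called genes with the largest absolute difference were named per comparison (Aldoa was not matched). The 3 genes with the most similar pattern were to be named for a member called at its promoter, which none was. Members and lists were chosen with earlier results of these data known. Replicate numbers did not pair libraries: correlations of their deviations ran from -0.29 to 0.36, and 0 of 14 comparisons had every pair above 0.1. 1 marker gene, and the mean of its list, are not reported here.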

Additional observations from a re-analysis of the deposited data

Results flagged for a closer look

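Among 173 groups of member promoters and called regions with 4 to 10 libraries, 14 held a library whose gap to its nearest neighbour exceeded Dixon's critical value, which chance does in about 1 in 20 groups. For Hk1, the H3K4me3 promoter percentile of LPS+IFN-γ diabetic BMDM replicate 6 was 64.4 (others 83.9 to 93.5). For Hk2, the H3K27ac promoter of control HSC replicate 4 was at 69.7 (others 56.0 to 61.0), and the H3K27ac region over its first coding exon described was at 11 in LPS+IFN-γ diabetic replicate 1 (others 44.6 to 54.5).

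Hk3 had an H3K27ac promoter percentile of 40.8 in LPS+IFN-γ diabetic replicate 6, the library of that group with a peak (others 15.5 to 20.0), and its upstream region was at 22.0 in diabetic HSC replicate 5 (others 64.4 to 72.4). The Hkdc1 H3K4me3 promoter was at 17.3 in LPS+IFN-γ diabetic replicate 5, which had no peak (others 26.4 to 31.7).

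The Slc2a3 H3K4me3 promoter stood at 100 in unstimulated control replicate 3 (others 63.0 to 74.1). Its intronic H3K27ac region was at 47.3 in diabetic HSC replicate 6 (others 72.6 to 81.0) and at 26.8 in unstimulated control replicate 1 (others 60.7 to 72.2). The Slc2a6 H3K27ac promoter was at 72.4 in LPS+IFN-γ diabetic replicate 3 (others 55.5 to 60.9), and the Slc2a8 H3K4me3 promoter at 65.6 in unstimulated diabetic replicate 6 (others 86.4 to 94.0).

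Slc2a4 stood out in 3 groups. Its H3K27ac promoter was at 17.3 in unstimulated diabetic replicate 5 (others 44.2 to 52.8) and at 20.9 in LPS+IFN-γ control replicate 3 (others 43.1 to 53.9), and its H3K4me3 promoter was at 43.1 in unstimulated control replicate 4 (others 55.4 to 62.7).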

How the results depend on the processing

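Among 3451 promoter and 7913 region alternatives for the members, no called value changed sign (no promoter was called), while 274 promoter and 597 region values that were not called did. Of the promoter values 3444 kept their side of the threshold and 7 passed it under an alternative. Of the region values 7832 kept their side, 61 lost a call and 20 gained one. The causes of the shifts below were not tested.

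Numbers of H3K27ac promoters called over all genes moved as follows. By disease in HSCs the count was 0, and 3 with no filter. With LPS+IFN-γ it was 0 in control cells and 75 without the libraries against their labels. In diabetic cells it was 491, and 277 with no filter, 245 with a replicate block, 129 on column 7 (fold enrichment), 292 on log2 rank and 0 by the exact permutation test. Between BMDMs and HSCs it was 2709 in control cells (1666 on column 7, 1617 by the exact test) and 2682 in diabetic cells (1541 on column 7). For H3K4me3 it was 914 in control cells, and 65 without the libraries against their labels, 211 on column 7 and 0 by the exact test. In diabetic cells it was 131, and 37 with no filter, 6 on column 7, 24 on log2 rank, 60 with windows of 500 bp, 62 at a −log10 q of 3 or more, 63 with an overlap of 200 bp and 0 by the exact test. The difference of that contrast between diseases was 0, and 1 at the stricter q.

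For H3K27ac regions, disease in unstimulated BMDMs called 2, and 0 on column 7, on log2 rank, from the 10000 best peaks and by the exact test. LPS+IFN-γ called 0 in control cells (558 without the libraries against their labels, which were found on stimulated regions, 2 from the 10000 best peaks) and 2217 in diabetic cells (1392 with a replicate block, 962 on column 7, 0 by the exact test). Between BMDMs and HSCs, 13507 and 12147 became 5022 and 4529 from the 10000 best peaks, where fewer regions were tested. The stimulation difference between diseases was 0, and 1 on column 7. Mean occupancy of the 9 promoters was 4.60 and 4.54, and 6.49 and 5.86 for the 20000 best peaks, 7.83 and 7.34 for whole lists and 7.66 and 7.20 for whole lists at the stricter q, for H3K27ac and H3K4me3.

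With each library left out in turn, H3K27ac promoter counts ran 0 to 1 (disease, HSCs), 168 to 830 (LPS+IFN-γ, diabetic, lowest without LPS+IFN-γ replicate 3 and highest without replicate 6), 2138 to 2695 and 2129 to 2452 (BMDMs against HSCs). H3K4me3 promoter counts ran 0 to 2 (disease, LPS+IFN-γ), 0 to 3 (LPS+IFN-γ, diabetic), 305 to 1526 (BMDMs against HSCs, control, lowest without HSC replicate 2 and highest without HSC replicate 1), 8 to 326 (diabetic, lowest without unstimulated replicate 2 and highest without HSC replicate 5) and 0 to 1 for both differences between diseases. Region counts ran 0 to 2 (disease, HSCs), 0 to 6 (disease, unstimulated), 0 to 2 (disease, LPS+IFN-γ), 0 to 55 (LPS+IFN-γ, control), 969 to 3007 (LPS+IFN-γ, diabetic), 12001 to 13190 and 10288 to 11147 (BMDMs against HSCs) and 0 to 3 (stimulation, between diseases). Of single member promoter differences 7 to 12 had an exact p under 0.05, against 10 with all libraries.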
